A study of Homo sapiens with 29 samples.

Results

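The 2 hairpin knockdowns compared here were made in H460, an established human large cell lung carcinoma line that carries a KEAP1 mutation. One group of 3 libraries came from cells with a short hairpin RNA against NRF2 (shNRF2) and the other group of 3 from cells with a hairpin against NR0B1 (shNR0B1), both at 72 h. These are 6 of the 27 RNA libraries of the series. The comparison is direct, shNRF2 over shNR0B1, and takes the genes with at least 1 FPKM (fragments scaled to transcript length and library size) in at least 3 of the 6 libraries. That left 11735 of 23710 gene symbols. H460 cells with a hairpin against GFP at 72 h (shGFP, 3 libraries) stayed outside the fit, and their levels are given beside some genes as a reference. H2122, another KEAP1-mutant lung cancer line, supplied 3 shNRF2 and 3 shGFP libraries at 24 h, which serve below as libraries that the H460 comparison did not use. The labels give neither the hairpin sequences nor how many were used, and do not say whether the 3 libraries of a group came from separate cultures, so a p-value here reflects no more than how these 6 libraries scatter, and that scatter may be technical.

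NRF2, encoded by NFE2L2, is a transcription factor of the CNC family that binds antioxidant response elements with a small MAF partner. It switches on genes for glutathione, thioredoxin, NADPH supply, drug detoxification and iron storage. KEAP1 normally holds NRF2 in the cytoplasm and marks it for degradation, so lines with mutant KEAP1 keep it active. NR0B1, also called DAX-1, is an orphan nuclear receptor that lacks the usual DNA-binding domain and acts mainly as a corepressor. A difference between these knockdowns shows where the transcriptomes part. By itself it does not say which of the knockdowns moved a gene.

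The libraries held 16709893 to 18084871 recovered reads in shNRF2 and 19378905 to 22362335 in shNR0B1, so depth also separated the groups; its part in the results was not tested. Of the epithelial keratin genes, KRT8, KRT18 and KRT19 were high, with KRT8 at 467, 456 and 460 FPKM in shNRF2 and 398, 401 and 405 FPKM in shNR0B1. KRT7 was low, at 2.87, 3.42 and 2.69 FPKM in shNRF2 and 5.31, 5.47 and 6.06 FPKM in shNR0B1. Of 15 epithelial markers, 5 were under 1 FPKM in all 6 libraries, CDH1 among them. CDH1, which encodes E-cadherin, stayed at or under 0.0658 FPKM in all 6 libraries, and all 9 lung lineage markers, such as the surfactant genes and NKX2-1, were under 1 FPKM. Of 15 immune cell markers, 13 were under 1 FPKM in all 6 libraries and 5 of these were at 0 (CD3D, CD3E, MS4A1, FCGR3A and NKG7). The summed immune list was 28.6 to 32.3 FPKM in shNRF2 and 34.7 to 38.6 FPKM in shNR0B1, nearly all of it CD68 and CD14. Of 13 fibroblast and endothelial markers, 7 were under 1 FPKM and CDH5 and CLDN5 were at 0; the list summed to 42.5 to 44.6 FPKM in shNRF2 and 24.9 to 26.0 FPKM in shNR0B1. LUM and DCN made up most of it in shNRF2, and COL3A1 was its largest member in shNR0B1, at 12.7, 12.0 and 12.0 FPKM. The part of other cells in any result was not tested.

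Both targeted transcripts were lower in shNRF2. NFE2L2 stood at 25.8, 26.8 and 27.9 FPKM in shNRF2, against 55.0, 55.6 and 52.7 FPKM in shNR0B1. Its log2 fold change was -0.99 ± 0.0385 (SE, n = 3 against 3, limma, Benjamini-Hochberg adjusted p = 1.37e-08). NR0B1 stood at 9.0, 8.82 and 9.35 FPKM in shNRF2, against 19.0, 18.3 and 17.2 FPKM in shNR0B1, a log2 fold change of -0.93 ± 0.0462 (limma adjusted p = 7.27e-08). The hairpin against NR0B1 thus left more NR0B1 transcript than the hairpin against NRF2 did, and the groups did not overlap for either gene. The shGFP libraries held 44.0, 44.3 and 41.5 FPKM of NFE2L2, below shNR0B1, and 48.9, 45.7 and 48.2 FPKM of NR0B1, above both knockdowns. Every difference below therefore sets less NRF2 transcript together with less NR0B1 transcript against the reverse, and the parts of the 2 genes cannot be told apart. In bulk RNA, fewer cells of a kind and less RNA per cell cannot be told apart either.

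**Figure D1:**
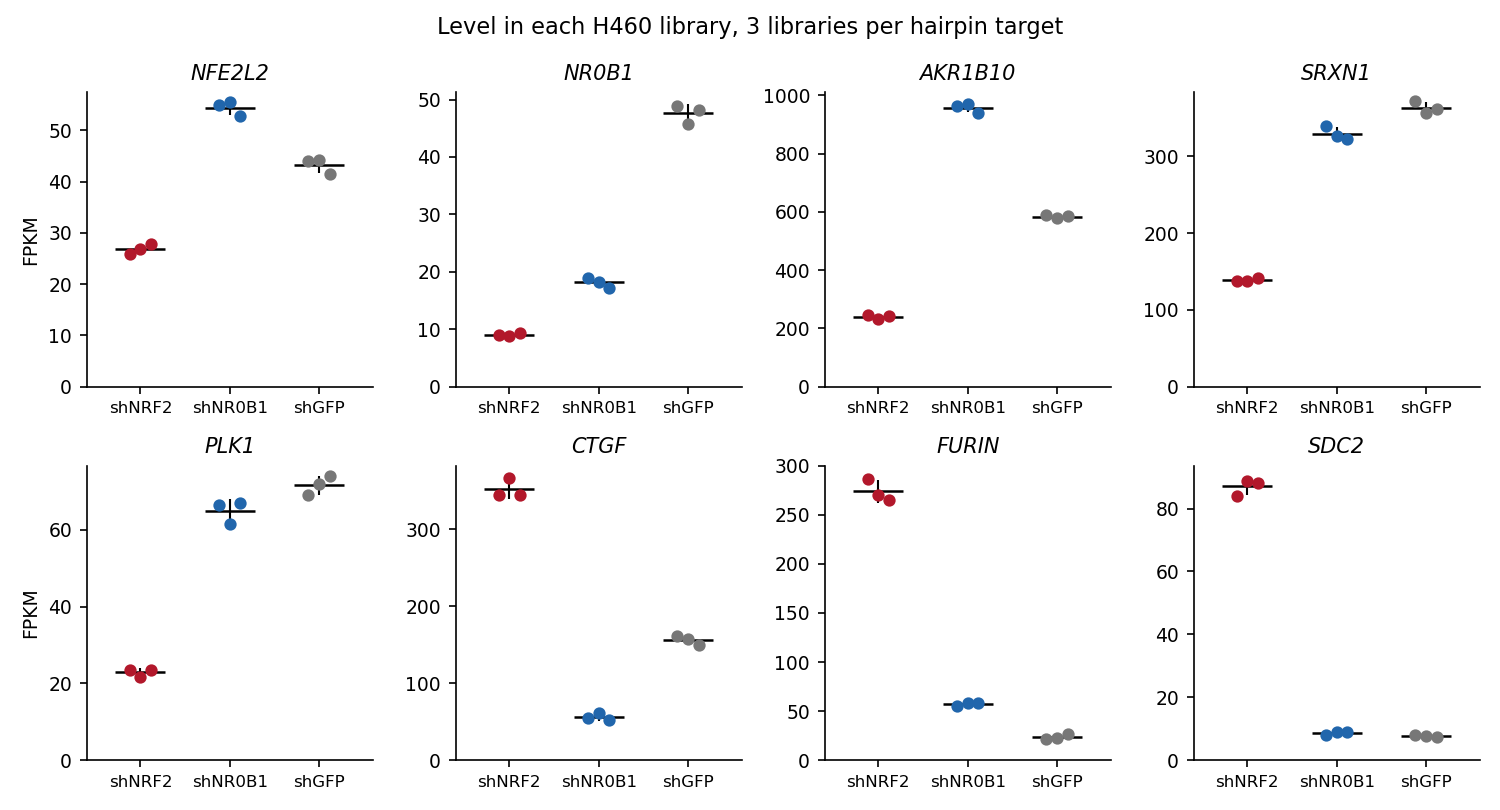
FPKM of 8 genes (y axis, linear from 0) in each of 3 shNRF2, 3 shNR0B1 and 3 shGFP libraries of H460; points are libraries, horizontal lines are means and vertical lines are 1 SD. NFE2L2 and NR0B1 are both lower in shNRF2 than in shNR0B1, and FURIN and SDC2 are several times higher in shNRF2.

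KEAP1, SNW1, RBM45 and relatives of NRF2 were examined next. KEAP1 was slightly lower in shNRF2, at 31.2, 29.5 and 30.5 FPKM against 34.4, 33.6 and 34.7 FPKM in shNR0B1 (log2 fold change -0.17 ± 0.0341, limma adjusted p = 0.00154). SNW1, a transcription and splicing coregulator, was lower by a log2 change of -0.19, and RBM45, an RNA-binding protein, was higher by 0.25. Among the CNC factors and small MAFs, NFE2L1, a close relative of NRF2 that is known to drive proteasome genes, was higher: 148, 143 and 138 FPKM in shNRF2 against 71.6, 73.6 and 71.7 FPKM in shNR0B1 (0.97 ± 0.0326). MAFG, a small MAF partner, was lower at 20.6, 20.1 and 19.7 FPKM in shNRF2 against 30.9, 30.8 and 30.9 FPKM in shNR0B1, and MAFF had a log2 change of -0.65. SQSTM1, an autophagy receptor that binds KEAP1, was lower by -0.47. NFE2L3 levels overlapped between the groups (0.0055, adjusted p = 0.909). Of 11 tested genes in the list of KEAP1 complex, CNC factors and small MAFs, 2 were higher and 7 lower, NFE2L2 itself among the lower ones. Of all genes tested, 38.6% were higher and 36.9% lower.

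Most of the transcriptome separated the 2 knockdowns. Limma called 8865 of 11735 genes at an adjusted p under 0.05, 75.5% of those tested: 4533 higher in shNRF2 (38.6%) and 4332 lower (36.9%). The 3 shNRF2 and 3 shNR0B1 libraries did not overlap for 78.2% of genes. Of the called genes, 1536 were at least 1.5 fold higher (13.1%) and 1253 at least 1.5 fold lower (10.7%), 23.8% together. At 4 fold or more, 54 were higher and 12 lower. The median log2 fold change over all genes tested was 0.011. When recovered reads were scaled to library totals in voom, this median moved to -0.10 and the calls split into 3614 higher and 5475 lower, so the balance of directions depends on the scaling. Counts for gene groups below are read against 38.6% higher and 36.9% lower.

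**Figure D2:**
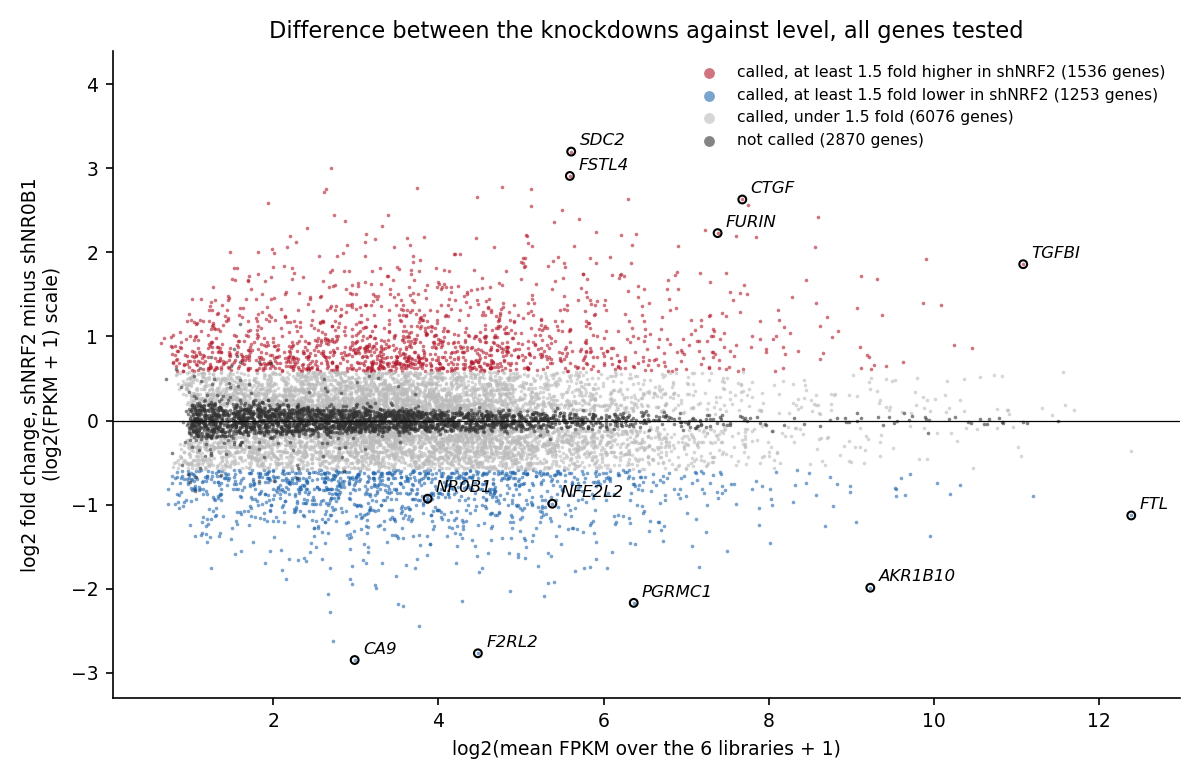
Each point is 1 of 11735 genes: the x axis is log2 of the mean FPKM over the 6 libraries plus 1, and the y axis is the log2 fold change of shNRF2 over shNR0B1. Red and blue points are the 1536 and 1253 genes called at 1.5 fold or more, and circled genes are named in the text; the largest differences lie on the higher side.

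Genes that NRF2 is known to control were mostly lower in shNRF2. Of 20 tested glutathione and thioredoxin genes, 17 were lower and 3 higher, with a median log2 fold change of -0.55, against 0.011 over all genes. SRXN1, sulfiredoxin, which repairs oxidised peroxiredoxins, stood at 138, 138 and 141 FPKM in shNRF2, against 340, 326 and 323 FPKM in shNR0B1 (-1.24 ± 0.0279, limma adjusted p = 5.96e-10). GSR, which regenerates reduced glutathione, stood at 55.9, 56.7 and 57.5 FPKM in shNRF2, against 132, 128 and 132 FPKM in shNR0B1 (-1.19 ± 0.0281). The groups did not overlap for either gene, and the shNR0B1 levels lay near those of shGFP (mean 363 FPKM for SRXN1 and 134 FPKM for GSR). TXNRD1, thioredoxin reductase, was at 210, 210 and 216 FPKM in shNRF2, against 426, 409 and 414 FPKM in shNR0B1 (-0.97), and PRDX1, a peroxiredoxin, changed by -0.87. GCLM, the modifier subunit of glutamate-cysteine ligase, was at 15.8, 17.5 and 18.0 FPKM in shNRF2, against 34.3, 32.1 and 32.5 FPKM in shNR0B1 (-0.91 ± 0.0512). TXNRD2, the mitochondrial thioredoxin reductase, went the other way (0.34), as did GGT1, which breaks down extracellular glutathione (0.22).

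The core of the antioxidant response element, TGACNNNGC, was looked up on both strands in windows of 250 bases before to 50 bases after each RefSeq gene start. These 3 genes are shown because they are the lower glutathione, thioredoxin and detoxification genes with a match and the largest changes; capitals mark the match. The windows are on GRCh38.p14, written 5′ to 3′ on the gene's strand.
ABCB6, chr2:219218909-219219208, minus strand: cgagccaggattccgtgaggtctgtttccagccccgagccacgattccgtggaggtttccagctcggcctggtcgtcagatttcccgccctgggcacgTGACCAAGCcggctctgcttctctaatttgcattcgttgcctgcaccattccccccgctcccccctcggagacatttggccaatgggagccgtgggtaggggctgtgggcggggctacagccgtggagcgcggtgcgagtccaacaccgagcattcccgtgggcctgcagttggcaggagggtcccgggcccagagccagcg
TXNRD1, chr12:104215529-104215828, plus strand: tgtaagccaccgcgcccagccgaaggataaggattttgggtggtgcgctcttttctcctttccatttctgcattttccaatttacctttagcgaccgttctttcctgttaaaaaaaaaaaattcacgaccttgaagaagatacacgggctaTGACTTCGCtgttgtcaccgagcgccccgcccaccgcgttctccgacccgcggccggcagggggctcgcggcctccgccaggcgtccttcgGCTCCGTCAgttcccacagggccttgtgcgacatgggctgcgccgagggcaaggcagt
GCLM, chr1:93909381-93909680, minus strand: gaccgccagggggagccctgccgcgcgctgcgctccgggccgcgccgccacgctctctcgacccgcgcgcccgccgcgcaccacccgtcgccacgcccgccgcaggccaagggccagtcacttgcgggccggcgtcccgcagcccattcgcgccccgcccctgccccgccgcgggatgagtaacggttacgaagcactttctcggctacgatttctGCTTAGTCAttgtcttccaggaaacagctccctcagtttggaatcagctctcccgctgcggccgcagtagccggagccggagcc

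The match lay 152 bases before the start in ABCB6, 99 and 8 bases before it in TXNRD1 and 34 bases before it in GCLM; the second match of TXNRD1 and that of GCLM read on the opposite strand. Windows with a match made up 15.0% of genes called lower, 15.4% of genes called higher and 15.4% of genes not called, and 13.6% of all 27305 windows in the table. By list, 3 of 16 glutathione and thioredoxin genes, 6 of 24 detoxification genes and 5 of 12 NADPH and pentose phosphate genes had one. The window of NR0B1 on chromosome X held none. A match is a description of letters, not of binding, and the letters outside these windows were not searched.

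Detoxification and efflux genes were lower in 23 of 32 tested cases and higher in 5 (median -0.67), and 18 were lower by at least 1.5 fold. AKR1B10, an aldo-keto reductase, was at 247, 234 and 241 FPKM in shNRF2, against 965, 970 and 939 FPKM in shNR0B1 (-1.99 ± 0.0278, limma adjusted p = 9.82e-11). The shGFP libraries lay between, at 589, 578 and 585 FPKM. ABCG2, a drug efflux pump, was at 4.97, 5.07 and 4.85 FPKM in shNRF2, against 19.6, 19.4 and 18.8 FPKM in shNR0B1 (-1.76 ± 0.0395). PTGR1, prostaglandin reductase, was at 64.1, 62.7 and 68.1 FPKM in shNRF2, against 221, 216 and 221 FPKM in shNR0B1 (-1.74). For these genes every shNRF2 library lay far below the lowest shNR0B1 library. AKR1C2 and AKR1C3 changed by -1.65 and -1.55. ABCB6, a porphyrin transporter, changed by -1.16. ALDH1A1, a retinaldehyde dehydrogenase, was higher, at 61.1, 64.4 and 59.7 FPKM in shNRF2 against 26.4, 27.2 and 25.9 FPKM in shNR0B1 (1.19), with shGFP at a mean of 57.6 FPKM near shNRF2. NQO1, a quinone reductase widely used as a marker of NRF2 activity, was also higher, at 1547, 1590 and 1577 FPKM in shNRF2 against 862, 835 and 828 FPKM in shNR0B1 (0.90 ± 0.0240, limma adjusted p = 1.51e-09). The shGFP libraries lay between, at 1289, 1266 and 1245 FPKM, so NQO1 in shNRF2 exceeded both other groups; it was named after its values were seen. ABCC1, a glutathione conjugate pump, was not called (-0.037, adjusted p = 0.355). AKR1B10, AKR1C2, AKR1C3, FTL, FTH1, PRDX1, NPM1, HLA-B and HLA-C have close copies or pseudogenes with which reads may be shared.

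NADPH supply and iron handling showed the same direction. All 10 called of 12 tested NADPH and pentose phosphate genes were lower, each by at least 1.5 fold (median -0.76). The called members include MTHFD1L (-0.74) and PPAT (-0.71), enzymes of folate and purine metabolism rather than of NADPH supply. Both were named after their values were seen. MTHFD2, the mitochondrial folate enzyme, was at 43.0, 42.4 and 43.9 FPKM in shNRF2, against 116, 132 and 116 FPKM in shNR0B1 (-1.47 ± 0.0492, limma adjusted p = 5.81e-09). TKT, transketolase, was at 251, 233 and 239 FPKM in shNRF2, against 576, 568 and 588 FPKM in shNR0B1 (-1.26 ± 0.0315). RPIA, TALDO1 and ME1 (malic enzyme) changed by -1.09, -1.01 and -0.93. PGLS was not called (-0.055). TKT and TALDO1 were higher in shNR0B1 than in shGFP, whose means were 448 and 281 FPKM, so shGFP lay between the knockdowns for both.

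Of 13 heme and iron genes, 9 were lower and 2 higher (median -0.40). The count of higher genes was 1 without shNRF2 replicate 2 or 3, and without any single shNR0B1 replicate. FTL, the ferritin light chain and among the most abundant transcripts here, was at 3413, 3277 and 3384 FPKM in shNRF2, against 7300, 7283 and 7528 FPKM in shNR0B1 (-1.13 ± 0.0234, limma adjusted p = 3.88e-10). FTH1, the heavy chain, was at 534, 555 and 568 FPKM in shNRF2, against 1347, 1462 and 1473 FPKM in shNR0B1 (-1.37 ± 0.0378). Ferritin stores iron, and both chains were lower by more than 2 fold without overlap. TFRC, the transferrin receptor that imports iron, was at 56.8, 55.7 and 59.1 FPKM in shNRF2, against 122, 111 and 117 FPKM in shNR0B1 (-1.02). HMOX1, heme oxygenase, and BLVRB, which reduces biliverdin, changed by -1.03 and -1.30. SLC11A2, an iron importer, was higher by 0.33, and BLVRA was not called.

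Serine and amino acid genes under ATF4 followed. Of 27 tested, 22 were lower and 3 higher (median -0.68). PHGDH, the first enzyme of serine synthesis, was at 25.4, 24.6 and 26.0 FPKM in shNRF2, against 82.6, 99.1 and 80.6 FPKM in shNR0B1 (-1.74 ± 0.0689, limma adjusted p = 1.58e-08). SHMT2, which passes serine carbon to folate in mitochondria, was at 89.5, 80.3 and 84.9 FPKM in shNRF2, against 211, 223 and 212 FPKM in shNR0B1 (-1.33). TRIB3, a pseudokinase, and ASNS, asparagine synthetase, changed by -1.51 and -1.0. In ASNS the second shNR0B1 library stood above the others of its group: levels were 18.6, 20.5 and 19.6 FPKM in shNRF2, against 36.2, 51.2 and 34.5 FPKM in shNR0B1. VLDLR was higher (1.33), and SESN2 was not called (-0.0091, adjusted p = 0.879).

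Hypoxia, glycolysis, cholesterol and lipid genes were mostly lower as well. Of 26 hypoxia and glycolysis genes, 21 were lower and 4 higher (median -0.41). CA9, a carbonic anhydrase induced by hypoxia, had the largest lower value of all genes named, at 1.14, 0.529 and 1.19 FPKM in shNRF2 against 13.2, 11.4 and 14.2 FPKM in shNR0B1 (-2.85 ± 0.132, limma adjusted p = 4.68e-08), with shGFP between at a mean of 7.39 FPKM. NDUFA4L2, another hypoxia target, was at 3.09, 2.47 and 4.24 FPKM in shNRF2 against 21.1, 22.2 and 22.5 FPKM in shNR0B1 (-2.44). ENO2, PGAM1 and HK2 changed by -1.61, -1.29 and -1.18. LDHA, lactate dehydrogenase, was not called and its groups overlapped (0.040, adjusted p = 0.202), although both knockdowns lay below the shGFP mean of 968 FPKM. NDRG1, also hypoxia-induced, went the other way (1.23). Of 27 cholesterol synthesis genes, 17 were lower and 6 higher (median -0.28), with ACAT2 at -0.91, and the fatty acid enzymes SCD and FASN at -0.78 each. TM7SF2, a sterol reductase, was higher (1.18).

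Of the gene lists examined, those for proliferation had the most uniform direction. All 28 mitosis genes were lower in shNRF2 (median -1.01), 22 of them by at least 1.5 fold. PLK1, a kinase of mitotic entry, was at 23.6, 21.7 and 23.4 FPKM in shNRF2, against 66.5, 61.5 and 66.9 FPKM in shNR0B1 (-1.47 ± 0.0452, limma adjusted p = 3.51e-09). CCNB2, a B-type cyclin, was at 22.6, 22.7 and 23.1 FPKM in shNRF2, against 61.8, 60.3 and 61.2 FPKM in shNR0B1 (-1.38). UBE2C, AURKB and KIF2C changed by -1.36, -1.28 and -1.27. AURKA had the smallest difference (-0.080, adjusted p = 0.0211), and was not called without shNRF2 replicate 2 (adjusted p = 0.0627), without shNR0B1 replicate 1 (0.0734) or without the variance trend (0.0621).

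Of 33 DNA replication genes, 32 were lower and none higher (median -0.94). GINS1, part of the replicative helicase, was at 3.37, 2.57 and 3.34 FPKM in shNRF2, against 12.5, 11.1 and 13.3 FPKM in shNR0B1 (-1.70 ± 0.0886, limma adjusted p = 1.00e-07). RRM2, the small subunit of ribonucleotide reductase, was at 31.2, 33.5 and 36 FPKM in shNRF2, against 108, 96.4 and 100 FPKM in shNR0B1 (-1.57). The origin factors ORC1, MCM2 and CDT1 changed by -1.39, -1.37 and -1.36. PCNA, the sliding clamp, was the exception, at 125, 130 and 128 FPKM in shNRF2 against 143, 130 and 132 FPKM in shNR0B1 (-0.082, adjusted p = 0.0783). PCNA was called without shNR0B1 replicate 2 (-0.11, adjusted p = 0.0353), and in the 3 other scalings the adjusted p was 6.81e-06 to 0.0347. For PLK1 the shNR0B1 mean of 65.0 FPKM was near the shGFP mean of 71.6 FPKM. ORC1, MCM2 and CDT1 had shNR0B1 means of 10.1, 23.9 and 15.0 FPKM, below shGFP means of 15.8, 32.9 and 23.9 FPKM. For PCNA both knockdowns lay below the shGFP mean of 217 FPKM. In the mitosis and replication lists, only MCM3, POLE, CENPF and CDCA8 had a higher mean in shNR0B1 than in shGFP. These genes were named after their values were seen, and the differences from shGFP were not tested.

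Among cyclin-dependent kinase inhibitors and cyclins, 4 of 11 were higher and 6 lower. CDKN1A, the p21 inhibitor, was at 89.3, 80.1 and 81.8 FPKM in shNRF2, against 57.9, 55.2 and 57.5 FPKM in shNR0B1 (0.55 ± 0.0431, limma adjusted p = 1.86e-06). CDK2 and CDK4 changed by -0.57 and -0.39. In voom only 1 of the 11 was called higher. Of 25 p53 targets, 12 were higher and 7 lower (median 0.097), or 10 and 10 in voom on read totals. ZMAT3 and PHLDA3 were higher (0.86 and 0.77). GDF15, a stress cytokine, was at 16.4, 14.8 and 16.8 FPKM in shNRF2, against 51.6, 59.1 and 56.1 FPKM in shNR0B1 (-1.73). BBC3 did not differ beyond its spread (-0.00027, adjusted p = 0.997).

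Ribosome biogenesis genes were lower in 19 of 27 cases and higher in 3 (median -0.32). FBL, the rRNA methyltransferase fibrillarin, was at 57.8, 61.8 and 59.1 FPKM in shNRF2, against 140, 138 and 141 FPKM in shNR0B1 (-1.21 ± 0.0320). NPM1, nucleophosmin, was at 528, 590 and 575 FPKM in shNRF2, against 1052, 1037 and 1043 FPKM in shNR0B1 (-0.89). Proteasome subunits were lower in 22 of 32 cases and higher in 3 by small steps (median -0.22), with PSMA3 at -0.74 and PSMD6 higher at 0.32. Heat shock genes had no common direction (8 higher and 11 lower of 25, median -0.018), with the chaperonins CCT8 at -0.82 and HSPD1 at -0.64. Nuclear genes of oxidative phosphorylation were also mixed, 8 higher and 13 lower of 27: COX5B changed by 1.01 and UQCRC1 by -0.77.

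**Figure D3:**
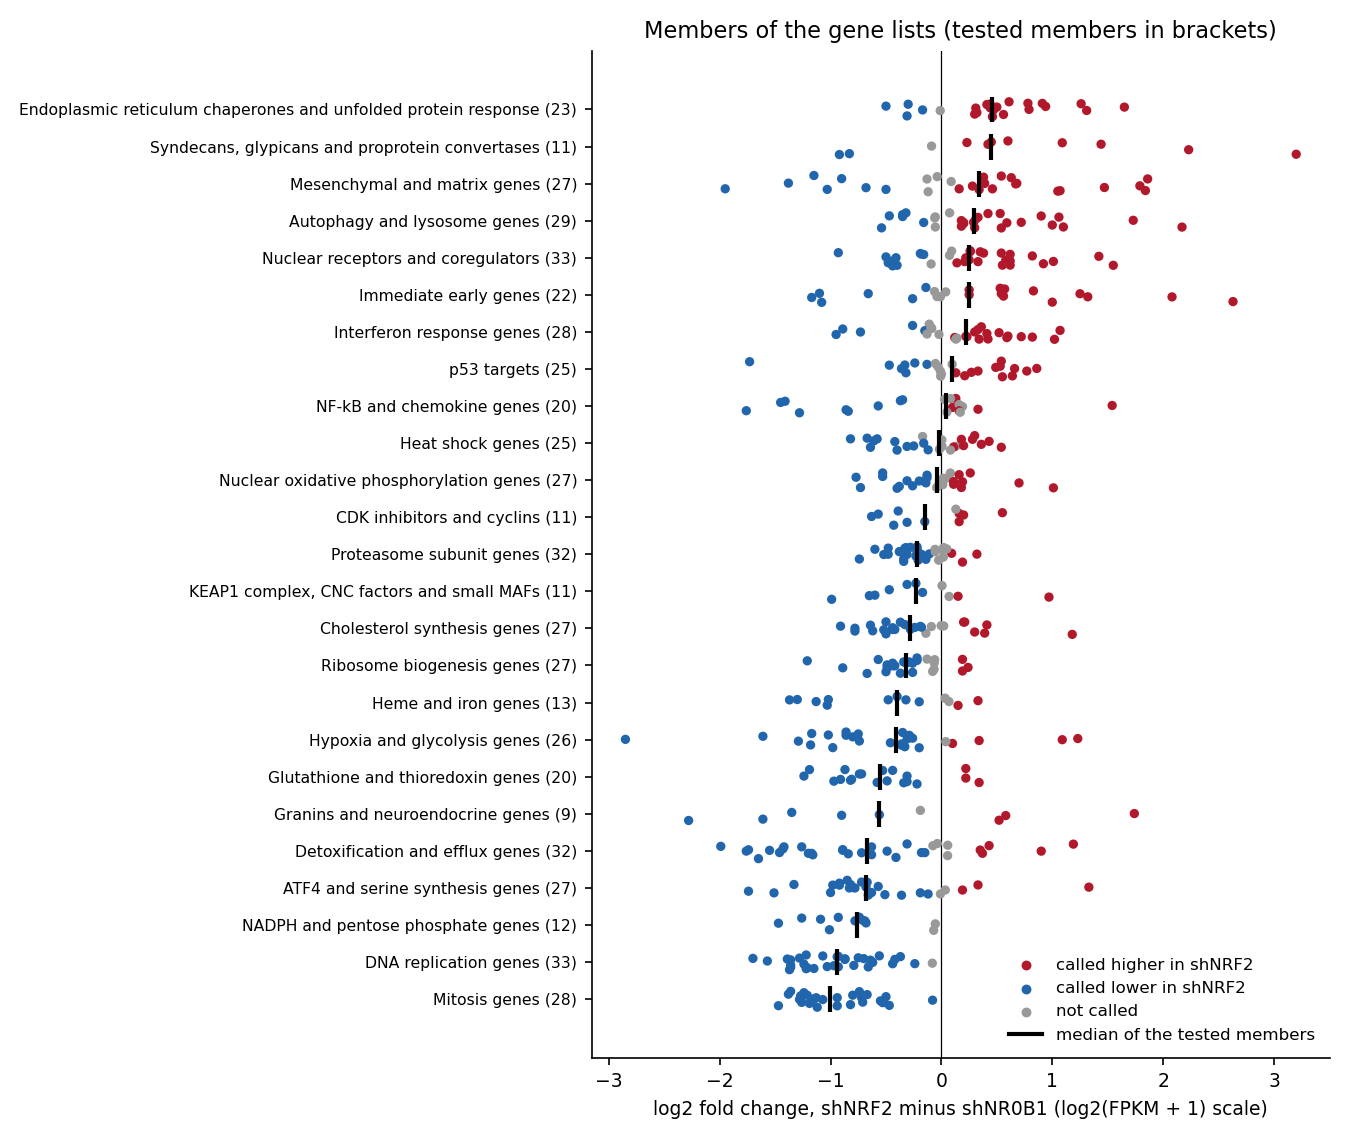
Log2 fold change of shNRF2 over shNR0B1 (x axis) for each tested member of the gene lists other than the cell type marker lists (rows, sorted by median); red and blue points are genes called higher and lower, grey points were not called, and black bars are medians. Mitosis and DNA replication genes sit lowest, at medians of -1.01 and -0.94, and among the lists drawn the endoplasmic reticulum chaperones sit highest at 0.46.

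Genes of the secretory pathway and of autophagy were higher in shNRF2. Of 23 endoplasmic reticulum chaperone and unfolded protein response genes, 18 were higher and 4 lower (median 0.46). CALR, calreticulin, was at 931, 959 and 907 FPKM in shNRF2, against 380, 393 and 389 FPKM in shNR0B1 (1.26 ± 0.0274, limma adjusted p = 4.75e-10), where the shGFP mean was 402 FPKM. DNAJC3, a cochaperone, was at 22.8, 23.7 and 22.9 FPKM in shNRF2, against 6.88, 6.57 and 6.68 FPKM in shNR0B1 (1.65 ± 0.0382). DNAJB11, a cochaperone of HSPA5, was at 91.0, 93.0 and 91.8 FPKM in shNRF2, against 36.5, 37.8 and 35.4 FPKM in shNR0B1 (1.31). For both cochaperones the shGFP libraries lay between the knockdowns, at means of 12.7 and 74.9 FPKM. EDEM1, which sends misfolded proteins to degradation, was lower (-0.50), and PDIA6 overlapped between the groups (-0.011).

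Autophagy and lysosome genes were higher in 19 of 29 cases and lower in 6 (median 0.29), 8 of them higher by at least 1.5 fold and none lower by as much. WIPI1, which marks forming autophagosomes, was at 35.8, 35 and 33.5 FPKM in shNRF2, against 6.14, 7.35 and 7.44 FPKM in shNR0B1 (2.17 ± 0.0642, limma adjusted p = 2.78e-09). GABARAPL1, an ATG8 protein, was at 104, 109 and 101 FPKM in shNRF2, against 29.3, 32.1 and 31.1 FPKM in shNR0B1 (1.73). The shGFP means were 8.79 FPKM for WIPI1 and 32.4 FPKM for GABARAPL1, close to shNR0B1. The lysosomal protease CTSB changed by 1.10 and WIPI2 by 1.06. ATG3 was lower (-0.54).

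Of the genes named for the largest differences, those on the higher side were led by SDC2. SDC2, a heparan sulfate proteoglycan, was at 84.1, 88.8 and 88.2 FPKM in shNRF2, against 8.0, 8.87 and 8.86 FPKM in shNR0B1 (3.20 ± 0.0450, limma adjusted p = 9.82e-11). FMOD, fibromodulin, was at 11.4, 10.4 and 9.91 FPKM in shNRF2, against 0.488, 0.411 and 0.422 FPKM in shNR0B1 (3.0 ± 0.0623). These were the only genes at 8 fold or more on the log2(FPKM + 1) scale, and for both the shNR0B1 level was near that of shGFP. FSTL4, a follistatin-like protein, was at 88.1, 82.9 and 81.2 FPKM in shNRF2, against 9.54, 11.0 and 10.5 FPKM in shNR0B1 (2.91). COL2A1, a fibrillar collagen, and PCDH20, a protocadherin, changed by 2.77 and 2.78. SLC9A3, a sodium-proton exchanger, OLFML2A, an olfactomedin-like protein, and SLC2A13, an inositol transporter, changed by 2.75, 2.57 and 2.50. CLEC3B, VIT, C3orf49, CEND1 and LYPD1 also belonged to the 15 largest, at 2.76, 2.66, 2.64, 2.59 and 2.55, as did PCSK2 and CTGF, described below. FSTL4 and COL2A1 were lower in shNR0B1 than in shGFP, where means were 26.5 and 6.95 FPKM, so shGFP lay between the knockdowns.

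FURIN, a proprotein convertase that cleaves precursors in the secretory pathway, was at 287, 270 and 265 FPKM in shNRF2, against 55.7, 58.2 and 58.2 FPKM in shNR0B1 (2.23 ± 0.0361, limma adjusted p = 1.53e-10). The shGFP libraries held less than either, at 22, 22.2 and 26.2 FPKM. PCSK2, a convertase of neuroendocrine granules, was higher too, at 9.40, 10.6 and 8.87 FPKM in shNRF2 against 0.577, 0.621 and 0.637 FPKM in shNR0B1 (2.72). PCSK6 was not called (-0.089, adjusted p = 0.0750), though it was called lower in all 3 other scalings. Of the 11 tested syndecans, glypicans and convertases, 8 were higher and 2 lower (median 0.45). The syndecans SDC3 and SDC1 were higher (1.44 and 1.09) and SDC4 was lower (-0.83). The glypicans were split too: GPC6 was higher (0.60) and GPC1 was lower, at 84.3, 82.6 and 81.0 FPKM in shNRF2 against 152, 158 and 162 FPKM in shNR0B1 (-0.92). SDC4 and GPC6 were named after their values were seen.

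Of 27 tested mesenchymal and matrix genes, 16 were higher and 7 lower (median 0.34). TGFBI, a matrix protein induced by TGF-beta, was at 3469, 3456 and 3264 FPKM in shNRF2, against 923, 957 and 924 FPKM in shNR0B1 (1.86 ± 0.0288, limma adjusted p = 1.28e-10). TGFB2, a TGF-beta ligand, was at 59.9, 64.4 and 61.7 FPKM in shNRF2, against 16.7, 16.9 and 16.3 FPKM in shNR0B1 (1.84), with shGFP between at a mean of 28.6 FPKM. COL5A1 and LAMB1, a collagen and a laminin chain, changed by 1.79 and 1.47. Matrix genes that also serve as fibroblast markers were split: DCN and LUM were higher (2.45 and 1.59), while COL3A1 and COL1A1 were lower (-1.57 and -1.38).

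Epithelial genes had no common direction. KRT19, a keratin, was at 1423, 1335 and 1313 FPKM in shNRF2, against 501, 530 and 508 FPKM in shNR0B1 (1.40 ± 0.0346), with shGFP between at a mean of 940 FPKM. JUP, plakoglobin, changed by 1.04. The tight junction claudins CLDN4 and CLDN7 were lower (-2.18 and -1.55), with CLDN4 at 3.75, 2.90 and 2.76 FPKM in shNRF2 against 17.3, 17.9 and 17.8 FPKM in shNR0B1. CLDN1 overlapped between the groups (0.043, adjusted p = 0.340).

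Growth factor and MAP kinase response genes were split. Of 22 immediate early and feedback genes, 12 were higher and 6 lower (median 0.25). CTGF, a matricellular protein and YAP target, was at 345, 367 and 344 FPKM in shNRF2, against 55.1, 61.8 and 51.6 FPKM in shNR0B1 (2.63 ± 0.0584, limma adjusted p = 5.47e-10). DUSP6, a phosphatase that dampens ERK, was at 195, 195 and 186 FPKM in shNRF2, against 45, 46.7 and 42.4 FPKM in shNR0B1 (2.08 ± 0.0393). The shGFP means, 157 FPKM for CTGF and 90.5 FPKM for DUSP6, lay between the knockdowns for both. DUSP4 and CYR61 changed by 1.32 and 1.25. DUSP5, another phosphatase of ERK, was lower, at a mean of 5.08 FPKM in shNRF2 against 11.8 FPKM in shNR0B1 (-1.08). MYC was lower as well, at 81.1 against 175 FPKM (-1.10). DUSP5 and MYC were named after their values were seen. FOSL1, an AP-1 subunit, was lower (-1.17), at 5.97, 5.60 and 5.76 FPKM in shNRF2 against 13.3, 14.4 and 15.0 FPKM in shNR0B1, and EGR1 was not called.

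NF-kB and chemokine genes counted 5 higher and 9 lower of 20, while their median was 0.039; after median-ratio scaling or a common FPKM total 3 were higher and 9 lower. TNFAIP3, which limits NF-kB signalling, was at 118, 116 and 112 FPKM in shNRF2, against 38.6, 40.7 and 38.0 FPKM in shNR0B1 (1.54 ± 0.0357, limma adjusted p = 6.84e-10). NFKBIA, another inhibitor of NF-kB, was lower, at a mean of 17.1 FPKM in shNRF2 against 31.8 FPKM in shNR0B1 (-0.86). It was named after its values were seen. The interleukin genes IL1A and IL1B were low throughout, IL1A at 0.0649, 0.0602 and 0.138 FPKM in shNRF2 against 2.59, 2.79 and 2.64 FPKM in shNR0B1 (-1.76), and IL1B with a change of -1.45. ICAM1 and PTX3 changed by -1.28 and -1.41. Both were also low, at means of 0.649 and 0.530 FPKM in shNRF2 against 3.01 and 3.07 FPKM in shNR0B1. CXCL1 overlapped (0.028, adjusted p = 0.614) at 74.1, 79.5 and 73.0 FPKM in shNRF2 and 74.6, 78.2 and 69.4 FPKM in shNR0B1, both below the shGFP mean of 180 FPKM.

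Interferon response genes were higher in 16 of 28 cases and lower in 5 (median 0.23). The lower count was 3 without shNRF2 replicate 3, 3 without shNR0B1 replicate 2, and 9 in voom. OAS1, an antiviral enzyme, was at 217, 220 and 216 FPKM in shNRF2, against 104, 104 and 103 FPKM in shNR0B1 (1.07 ± 0.0244, limma adjusted p = 6.55e-10). HLA-B and HLA-C, antigen presentation genes, changed by 1.02 and 0.82. OAS3 and IFI44 were lower (-0.89 and -0.95), so members of the same OAS family lay on opposite sides.

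Of 33 tested nuclear receptors and coregulators, 20 were higher, 9 lower and 8 at least 1.5 fold higher; NR0B1 was the member with the largest lower value. The orphan receptors of the NR4A family were higher together: NR4A2 at 30.5, 31.4 and 29.0 FPKM in shNRF2 against 9.89, 9.95 and 9.28 FPKM in shNR0B1 (1.55 ± 0.0437, limma adjusted p = 2.06e-09). NR4A1 stood at 94.5, 83.0 and 83.3 FPKM in shNRF2 against 31.0, 32.8 and 31.5 FPKM in shNR0B1 (1.42), and NR4A3 changed by 1.01. For NR4A1 shGFP lay between, at a mean of 70.7 FPKM, and for NR4A2 it was near shNR0B1, at 10.3 FPKM. NR2F2 changed by 0.92. NCOR1, a corepressor, was not called (0.073, adjusted p = 0.171).

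Neuronal and neuroendocrine genes counted 3 higher and 5 lower of 9. CPLX2, complexin, was at 1.30, 1.17 and 1.15 FPKM in shNRF2, against 9.23, 9.65 and 10.2 FPKM in shNR0B1 (-2.28 ± 0.0557). CHGA, chromogranin A, was at 9.71, 10.4 and 9.32 FPKM in shNRF2, against 25.5, 28.7 and 25.4 FPKM in shNR0B1 (-1.35), while shGFP held only 4.54, 4.09 and 3.96 FPKM. UCHL1, a neuronal hydrolase of ubiquitin, changed by -0.90. NCAM1, a neural adhesion molecule, was higher (1.74). Other genes far lower in shNRF2 were F2RL2, a thrombin receptor of the PAR family, at 4.57, 4.87 and 4.66 FPKM in shNRF2 against 37.1, 39.4 and 37.1 FPKM in shNR0B1 (-2.77 ± 0.0415), PGRMC1, a heme-binding membrane protein (-2.17), the Ras-like GTPase RIT1 (-2.03) and RSPO3, a Wnt agonist (-1.99). PPAP2C, a lipid phosphate phosphatase, was at 13.9, 13.4 and 13.9 FPKM in shNRF2 against 60.5, 61.3 and 63.5 FPKM in shNR0B1 (-2.09); there shNR0B1 stood apart and shGFP was at 10.5, 9.23 and 11.5 FPKM.

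The shGFP levels place these differences. On the log2(FPKM + 1) scale, the shGFP mean was nearer to shNR0B1 than to shNRF2 for 1173 of the 1536 genes at least 1.5 fold higher in shNRF2 (76.4%) and for 996 of the 1253 at least 1.5 fold lower (79.5%). Among all called genes of any size, the share was 69.0% of 4533 higher and 70.5% of 4332 lower genes. It was not computed for genes that were not called. Of the 1536 higher genes, shGFP was below both knockdowns for 591, as for FURIN, and above both for 102. In 582 it lay between and nearer shNR0B1, as for LYPD1, and in 261 between and nearer shNRF2, as for ALDH1A1 or NR4A1. Of the 1253 lower genes, shGFP was above both knockdowns for 627, as for TXNRD1, MCM2 and CPLX2, and below both for 62, as for CHGA and PPAP2C. It lay between for 369 nearer shNR0B1 and 195 nearer shNRF2, with F2RL2 among the first and HHIPL2 among the last. These are counts of means, with no test and no margin, so they include genes whose shGFP mean was close to that of shNR0B1. ME1 counted as above both with shGFP at 69.2 FPKM and shNR0B1 at 69.0 FPKM. SDC2 counted as below both with shGFP at 7.66 FPKM and shNR0B1 at 8.58 FPKM.

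**Figure D4:**
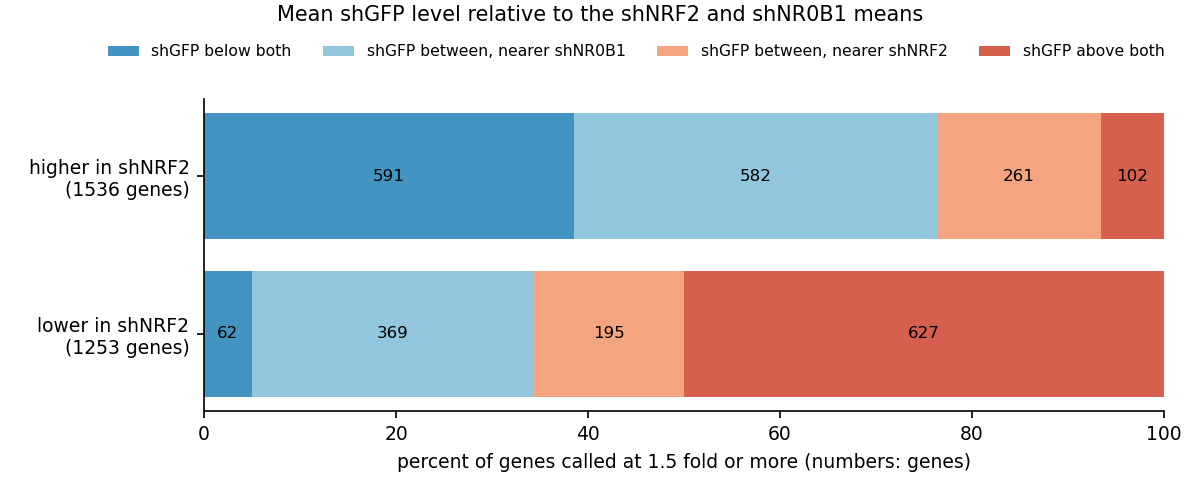
Percent of genes called at 1.5 fold or more (x axis) by the place of the mean shGFP level, for genes higher in shNRF2 (top) and lower in shNRF2 (bottom) than in shNR0B1; numbers in the bars are genes. In 627 of 1253 lower genes shGFP lies above both knockdowns.

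The H2122 libraries gave a view that shares no sample with the H460 comparison. There shNRF2 was compared with shGFP at 24 h, so line, time and reference all differ. Limma called 48.8% of 11710 genes higher and 38.5% lower there. Of the 1247 genes at least 1.5 fold higher in H460 shNRF2 than in shNR0B1 that were tested in H2122, 73.6% were higher and 16.1% lower after NRF2 knockdown in H2122. Among all 10627 genes tested in both lines, 46.7% were higher and 40.5% lower. Of the 1115 genes at least 1.5 fold lower in H460, 77.6% were lower and 16.0% higher in H2122. No test of this overlap was made. AKR1B10 fell by 3.73 and F2RL2 fell by 2.77 on the log2 scale in H2122, NR0B1 fell by 3.32, and DUSP6 rose by 2.06 and NR4A2 by 1.60. Some genes did not keep the direction seen against shNR0B1. CLDN4 rose by 0.53 and PPAP2C by 0.99 in H2122, although both were lower in H460 shNRF2 than in shNR0B1. With the H460 shGFP mean as reference, without a test, only CLDN4 was lower in shNRF2 (3.14 against 7.22 FPKM). PPAP2C was higher there (13.7 against 10.4 FPKM), the same direction as in H2122. AKR1C2 had a smaller change in H2122 (-0.42). LDHA fell by 1.60 in H2122. In H460 LDHA was not called against shNR0B1, while both knockdowns lay below the shGFP mean of 968 FPKM.

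**Figure D5:**
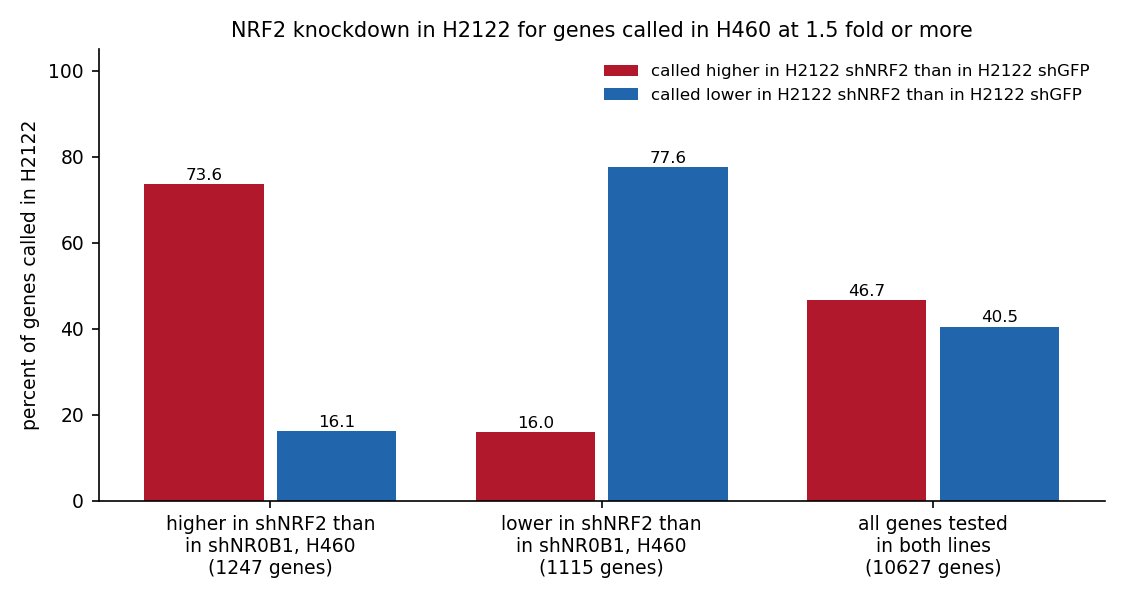
Percent of genes called higher (red) or lower (blue) in H2122 shNRF2 against H2122 shGFP (y axis), for genes at least 1.5 fold higher or lower in H460 shNRF2 than in shNR0B1 and for all genes tested in both lines. The 1247 higher genes are 73.6% higher in H2122, and the 1115 lower genes are 77.6% lower.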

How the data were processed

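RNA was measured by sequencing polyadenylated RNA from established lung cancer lines. The authors deposited one table of FPKM values (fragments scaled to transcript length and library size) by gene symbol. That scale did not follow the recovered read totals alone: relative to shNR0B1 replicate 1, a read counted for 1.08 to 1.09 times what the totals would give in shNRF2 and 0.996 to 0.999 times in the other shNR0B1 libraries. The tools named in the submitters' processing notes are featureCounts, STAR and DESeq2, with build hg19. Their versions, the annotation and the strand setting were not given in the sources used here. The kit in the labels does not mark strand, so a gene and an overlapping antisense gene cannot be told apart.

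Genes that reached 1 FPKM in 3 or more of these 6 libraries were fitted with limma 3.58.1 in R 4.3.3. The fit used log2(FPKM + 1) and a trend of variance on mean, and was two-sided, with Benjamini-Hochberg adjustment over all 11735 genes. A gene was called at an adjusted p under 0.05. The scale understates changes of low genes. Replicate numbers were not used as pairs. The read recovery and the limma fit were also run on simulated data. In the simulated fit far fewer genes changed than were called here, and libraries were scaled to their read totals. It is therefore not used as support for the calls. The smallest FPKM steps of a gene stand for 1 read; on these steps 100% of the genes tested came out as whole reads (tolerance 0.02 reads), which gave the depths.

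Named genes are NFE2L2, NR0B1, KEAP1, SNW1 and RBM45, and the 15 largest changes in each direction that do not overlap and reach 5 FPKM in the higher group. From each list the 5 largest called changes, the largest against the majority, and the smallest change were added. The members and lists were chosen with earlier results of these data known, so lists carry no set test. Alternatives covered the pseudocount, filter, scaling, weighting, variance model, replicate block and left-out libraries. The deposited peak list of NR0B1 binding was not used here, because no gene annotation of its build was used. Promoter windows are from RefSeq, build GRCh38.p14, matched by symbol or unique synonym for 9404 of the 11735 genes.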

Additional observations from a re-analysis of the deposited data

How the results depend on the processing

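The count of 8865 called genes was 8384 to 8676 when a single library was left out, with 4289 to 4425 higher, 4095 to 4251 lower and 2768 to 2861 at 1.5 fold or more. It was 8719 with the replicate number as a block, although same-numbered libraries did not deviate together (correlations of -0.048, 0.076 and 0.010), so the numbers are not taken as pairs. No filter gave 9946 called genes of 17576, and a filter of 5 FPKM gave 6865 of 8524. Genes at 1.5 fold or more numbered 3422 with a pseudocount of 0.1 and 3646 in voom, against 2789. The higher share of calls was 51.1%, or 47.4% at a common FPKM total and 39.8% in voom. Of 198 named genes, 182 could be fitted at the 5 FPKM filter and all under the other alternatives; no called gene changed direction where it was fitted, and the 3 lost calls are all of AURKA, given above. In voom several genes not called otherwise were called lower, among them PGLS, ABCC1, SESN2, PDIA6 and LDHA (-0.078); LDHA was 0.040 on the FPKM scale. Also in voom, 4 oxidative phosphorylation genes were higher, against 8. The NF-kB list had 3 genes lower at the 5 FPKM filter, against 9. The share of lower H460 genes also lower in H2122 was 83.8% at the 5 FPKM filter. Genes near 1 FPKM rest on few reads, which limits their precision.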
